A study of Homo sapiens with 12 samples.

Results

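Collagens are the fibrous scaffold proteins of the extracellular matrix, and 42 collagen chain genes were examined here in HT1080 cells, an established human fibrosarcoma line. A gene was a member if it was protein-coding, lay on an autosome and had a symbol of the form COL, number, A, number. The rule found 42 of 19126 autosomal protein-coding genes. By their established classes, 11 members encode fibrillar chains, 4 basement membrane chains, 10 FACIT chains and 5 beaded filament chains. The other 12 comprise 3 short-chain network, 4 transmembrane and 2 multiplexin chains, 1 anchoring fibril chain and 2 chains of other kinds.

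The study measured open chromatin by ATAC-seq, in which a transposase cuts and tags accessible DNA, in cells that had migrated for 48 h in rat tail type I collagen gels. The gels contained 0.3 mg/mL (low), 1.0 mg/mL (medium) or 1.7 mg/mL (high) collagen, with 4 libraries each and 12 in all. Every group, the low concentration included, also received 20 µM GM6001, a broad metalloproteinase inhibitor, so there was no group without the inhibitor. Cells were released from the gels with collagenase, frozen and thawed before the assay. All groups were the same cell line, and the labels do not say whether the libraries came from separate cultures. The deposited peak list covered the whole series in 1 table without values per library or concentration. Differences between concentrations were therefore not analysed here, no value below has replicates, and comparisons between gene groups are descriptions without a test.

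In the cell, collagen chains wind around each other into a stiff rope-like helix that is secreted and then trimmed. Fibrillar collagens such as types I, II, III, V and XI assemble into cross-striated fibrils, and type IV forms the sheet-like network of basement membranes. FACITs (fibril-associated collagens with interrupted helices) coat the surface of fibrils, and type VI forms beaded filaments between cells and fibrils. Fibroblast-like cells are the main source of fibrillar collagens in connective tissue, whereas several members are specific to cartilage, cornea, skin or kidney.

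The list held 188019 lines in 91278 intervals. Each line gives a summit, the position of highest signal, with the authors' fold enrichment over local background. The pileup, the number of fragments or extended reads that overlap at the summit, was recovered from the enrichment and the p-value. Its median over the list was 101. The list does not say which of them was counted, and the unit is called a fragment below. The cell line's own markers were checked in the same way as the members. A summit lay within 1 kb of the start of 6 of 6 mesenchymal markers, with enrichments of 6.27 (TWIST1) to 15.1 (FN1), against 64.4% of all autosomal coding genes with such a summit. It did so for 1 of 5 epithelial markers (EPCAM, 2.11), 0 of 3 endothelial markers and 2 of 4 blood markers (CD3E, 14.5, and SPI1, 8.44), a share near that of all genes. Where no start is listed, as for TWIST1, EPCAM, CD3E and SPI1, a summit within 1 kb of either end of the gene was counted. For these genes the count does not place the summit at the start.

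The starts of the collagen IV genes are printed first because 2 pairs of similar layout differed in accessibility. These genes lie in head-to-head pairs, with a short stretch between the gene edges. COL4A1 and COL4A2, the chains of nearly all basement membranes, are separated by 126 bases on chromosome 13. COL4A3 and COL4A4, which encode chains of the kidney filter, cochlea and lung, are separated by 135 bases on chromosome 2, and the listed COL4A4 start lies a further 283 bp inside its gene. Sequences are RefSeq, GRCh38.p14, on the strand of the named gene and 5′ to 3′, with CG dinucleotides in capitals.
COL4A1 to COL4A2, chr13:110307158-110307283, plus strand: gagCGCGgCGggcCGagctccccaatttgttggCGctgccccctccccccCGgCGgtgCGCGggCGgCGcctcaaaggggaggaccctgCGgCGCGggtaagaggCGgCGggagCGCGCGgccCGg
COL4A4 to COL4A3, chr2:227164489-227164623, plus strand: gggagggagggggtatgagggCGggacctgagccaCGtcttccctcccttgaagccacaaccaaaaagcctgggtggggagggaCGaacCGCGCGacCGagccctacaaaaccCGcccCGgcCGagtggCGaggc

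The first stretch contained a summit and the second did not. The summit of the COL4A1 and COL4A2 pair lay at 110307205, 48 bp before the COL4A1 start and 79 bp before the COL4A2 start. It had an enrichment of 7.53 (pileup 360, background 47.0 fragments), in the interval chr13:110306601-110308192. Both stretches were rich in CpG, with 20 CG dinucleotides in the first and 11 in the second, and G and C made up 80.2% and 68.1% of their bases. The nearest summit to COL4A3 lay 23.9 kb from its start, with an enrichment of 2.06 (pileup 43). For COL4A4 the nearest lay 56.8 kb from the start, with 4.50 and 95.

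A further 4 start regions are shown because they span the range from open to closed and from CpG-rich to CpG-poor. Each run is the 150 bases before the listed start. COL5A1 and COL6A3 had a summit inside the printed run, while COL15A1 and COL11A1 had none within 1 kb.
COL5A1, chr9:134641653-134641802, plus strand: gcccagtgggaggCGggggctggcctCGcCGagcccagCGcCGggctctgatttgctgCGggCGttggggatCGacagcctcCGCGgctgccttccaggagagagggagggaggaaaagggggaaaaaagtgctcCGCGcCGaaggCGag
COL6A3, chr2:237414165-237414314, minus strand: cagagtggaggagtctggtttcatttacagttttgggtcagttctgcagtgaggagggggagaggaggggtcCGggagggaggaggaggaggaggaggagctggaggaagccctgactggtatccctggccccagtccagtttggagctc
COL15A1, chr9:98943757-98943906, plus strand: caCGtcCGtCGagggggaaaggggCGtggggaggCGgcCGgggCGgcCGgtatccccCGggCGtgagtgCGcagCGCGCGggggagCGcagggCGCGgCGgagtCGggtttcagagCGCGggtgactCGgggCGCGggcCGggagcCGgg
COL11A1, chr1:103108523-103108672, minus strand: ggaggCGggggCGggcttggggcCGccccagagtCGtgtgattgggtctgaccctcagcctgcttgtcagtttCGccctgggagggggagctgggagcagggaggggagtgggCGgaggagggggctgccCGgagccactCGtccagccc
The open COL6A3 run held 1 CG dinucleotide and the closed COL15A1 run held 26. The COL5A1 run held 14 and the COL11A1 run 8.

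Across the family, a smaller share of gene starts was accessible than over all coding genes, although nearly all members had a summit somewhere. A summit lay inside the gene or within 10 kb of it for 41 of 42 members (97.6%, exact 95% interval 87.4 to 99.9), against 90.9% of all autosomal coding genes. The exception was COL3A1. Among genes longer than 20 kb these shares were closer, at 97.5% of 40 members and 95.9% of 10600 coding genes. Within 1 kb of the start, however, a summit was found for 17 of 42 members (40.5%, exact 95% interval 25.6 to 56.7), against 64.4% of all coding genes. These intervals cover counting over genes only. For 30 members the RefSeq table lists a start with its strand. For the other 12 (COL1A1, COL1A2, COL2A1, COL3A1, COL5A2, COL6A1, COL6A5, COL8A1, COL9A3, COL14A1, COL20A1 and COL22A1) a summit within 1 kb of either end of the gene was counted. A summit at the start was present for 10 of the 30 genes with a listed start (33.3%), against 65.5% of all such coding genes, and for 7 of the 12 without (58.3%), against 60.4%.

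Where a collagen start was open, it was mostly less open than a typical start. The highest enrichment at the start had a median of 7.03 over the 17 members that had a summit there, with a range of 1.55 to 12.3. The median over the 12323 coding genes with such a summit was 11.9. In pileup the medians were 332 and 775 fragments. Of the members, COL7A1 (12.3) and COL5A2 (12.2) alone lay above the median of all genes, and COL5A1 (11.0) and COL6A1 (10.0) came next. COL5A2 has no listed start, and its summit also lay within 1 kb of an end or start of WDR75. At the low end, COL20A1 (1.55), COL22A1 (1.88), COL9A3 (1.92) and COL6A6 (2.35) each ranked no higher than the lowest 7.0% of all gene starts with a summit.

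**Figure D1:**
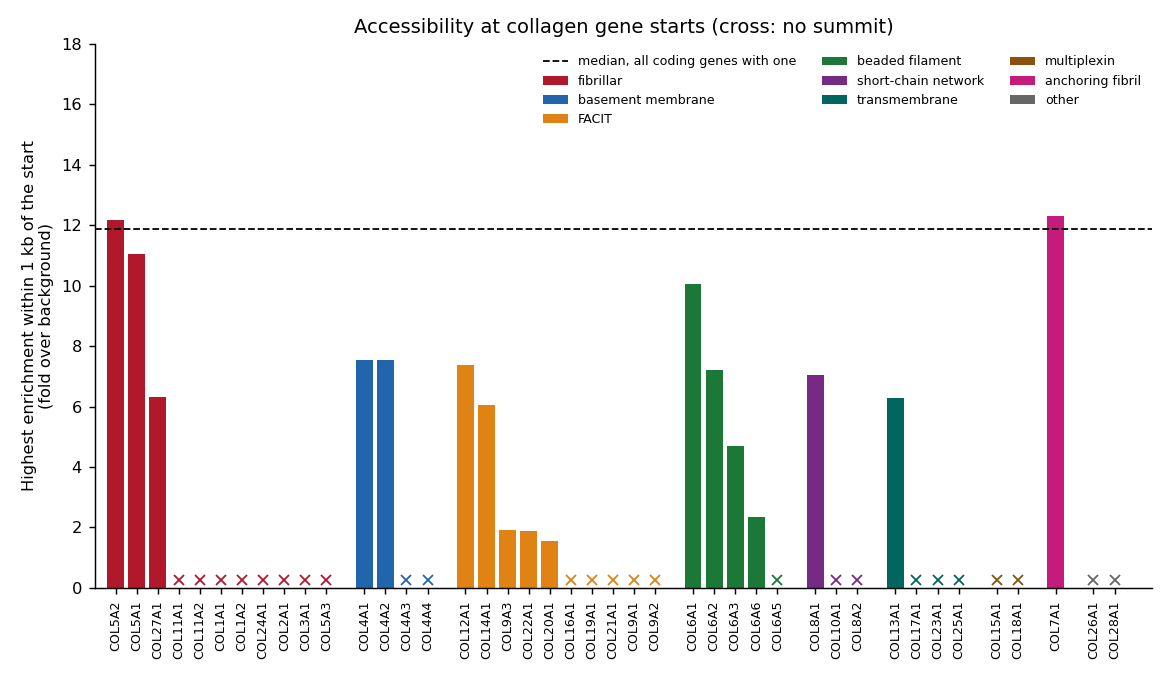
Highest enrichment (fold over local background) within 1 kb of the start of each of the 42 collagen genes, or of either end where no start is listed. Bars are the deposited value in the pooled list, colours the collagen classes and crosses the 25 genes without a summit there. The dashed line is the median of 11.9 over all coding genes with one. Only COL7A1 and COL5A2 pass it, and the COL5A2 summit also lay within 1 kb of an end or start of WDR75.

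Of the 4 contrasted classes, the fibrillar genes had the smallest share of open starts and the beaded filament genes the largest, but the lowest class changed with the settings. A summit at the start was counted for 3 of 11 fibrillar genes (27.3%, exact 95% interval 6.02 to 61.0) and 2 of 4 basement membrane genes (50%, 6.76 to 93.2). It was counted for 5 of 10 FACIT genes (50%, 18.7 to 81.3) and 4 of 5 beaded filament genes (80%, 28.4 to 99.5). The intervals of all 4 classes overlapped, but they cover counting over genes only, and differences between classes were not tested. In the basement membrane class the same summit was counted for COL4A1 and COL4A2. At a −log10 q-value of at least 10 the FACIT count fell from 5 to 2, below the fibrillar share, without COL9A3, COL20A1 and COL22A1. A start window of 500 bp also left 2, without COL9A3, COL14A1 and COL20A1. COL6A6 had no call under either setting, nor when both ends of every gene were used in place of the listed start. In strength the order differed. The median enrichment at open starts was 11.0 in the fibrillar class, 7.53 in the basement membrane class, 5.95 in the beaded filament class and 1.92 in the FACIT class. Of the 12 remaining members, 3 had a summit at the start.

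Among the fibrillar genes a summit at the start was counted for COL5A1, COL5A2 and COL27A1. Other minor chains, COL5A3, COL11A1, COL11A2 and COL24A1, had none. COL5A1, which encodes a type V chain that starts fibril assembly, had a summit 131 bp before its start on chromosome 9 with an enrichment of 11.0 (pileup 932). Its type V partner COL5A2 had a summit 160 bp beyond the upper end of the gene on chromosome 2, with an enrichment of 12.2 (pileup 761). An end or start of WDR75 lay within 1 kb of the same summit, so this signal cannot be assigned to COL5A2 alone. COL27A1, a fibrillar chain of cartilage, had a summit 82 bp before its listed start with an enrichment of 6.32 (pileup 287). The remaining type V gene, COL5A3, had none within the window: its nearest summit lay 1014 bp from the start, just outside, with an enrichment of 2.26 (pileup 49).

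COL1A1, COL1A2 and COL3A1, the genes of types I and III, had no summit within 1 kb of either end. COL1A1 on chromosome 17, a chain of type I collagen, had 3 summits in its window. The nearest lay at 50200418, 1213 bp inside the upper end of the gene, with an enrichment of 9.95 (pileup 927). The strongest lay 5589 bp below the lower end, with 14.1 and 1573, and the other lay 8945 bp above the upper end, with 8.32 and 332. The interval of the nearest summit, chr17:50200099-50201054, reached into the window of 1 kb, so COL1A1 was counted when intervals in place of summits were used. Its partner COL1A2 on chromosome 7 had 2 weak summits, with an enrichment of 1.98 (pileup 45) 2619 bp below the lower end and 3.75 (pileup 79) 7156 bp inside the upper end. COL3A1, the type III chain that accompanies type I in soft tissues, had 0 summits in its 38.4 kb or the flanking 10 kb.

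COL2A1, COL11A1, COL11A2 and COL24A1 also had no summit at their starts. COL2A1, the main cartilage collagen, had 5 summits, and the strongest (enrichment 14.3, pileup 619) lay 9427 bp below the gene, within 1 kb of an end or start of TMEM106C. The other 4 had enrichments of 1.88 to 5.08 and lay inside the gene. COL11A1, a type XI chain of 232.1 kb, had 1 summit, 228.8 kb from its start, with an enrichment of 12.4 (pileup 264). COL11A2 also had 1 summit, 7199 bp before its start (enrichment 7.98, pileup 347), and RXRB and SLC39A7 each had a start or end within 1 kb of it. COL24A1 spans 427.8 kb and had 3 summits, of which the nearest lay 19.1 kb into the gene with an enrichment of 8.86 (pileup 188).

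Within the basement membrane class, COL4A2 held many more sites than its partner. COL4A2 had 24 summits over 205.9 kb and COL4A1 had 8 over 158.2 kb, and they shared the summit between their starts. This was the strongest summit of COL4A1, in which the other 7 had enrichments of 1.80 to 6.75. In COL4A2, 5 summits inside the gene exceeded an enrichment of 10. The strongest, with 13.5 and a pileup of 910, lay 89.7 kb from the start. The remaining 4 lay at 12.9 kb (10.3), 40.8 kb (11.4), 83.5 kb (10.5) and 105.1 kb (12.1). COL4A3 had 1 summit in 150.2 kb. COL4A4 had 4, and one of these was the strongest of the class, with an enrichment of 16.0 (pileup 978) in the interval chr2:226995454-226996252, 168.4 kb into the gene. No other gene had a listed start, or an end where none is listed, within 1 kb of it.

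The FACIT class divided into genes with a summit at the start and genes with signal only elsewhere. COL12A1, a FACIT of tendon and ligament, had the strongest start, with an enrichment of 7.39 (pileup 340) at 96 bp before the start. COL14A1 had 6.05 and a pileup of 128 at 739 bp below its lower end. COL9A3, COL22A1 and COL20A1 had enrichments of only 1.92, 1.88 and 1.55 and pileups of 83, 39 and 91. The pileup of 39 was close to 35, the lowest in the list. Type IX collagen is a cartilage FACIT, and 2 of its 3 genes had 1 summit each. For COL9A1 it lay 29.2 kb upstream of the listed start, with an enrichment of 7.93 (pileup 168). That start is 19887 bp inside the gene's outer edge, and the summit lay beyond this edge. For COL9A2 the summit lay 17.5 kb from the start, past the far end of the gene, with 2.56 and 61.

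The FACIT genes without an open start included some of the strongest sites of the family. In COL19A1 the site 51.5 kb from the start had an enrichment of 16.98 (pileup 635), which exceeded the strongest site of 92.2% of all coding genes with a summit. COL21A1 had 18 summits, and the strongest lay 146.3 kb into the gene, with 15.2 and a pileup of 340. In this gene 13 summits lay before the listed start, because the listed start is 146548 bp inside the gene's outer edge, and none of them lay within 1 kb of that edge. COL16A1 had its nearest summit 1362 bp before the start, with an enrichment of 4.08 (pileup 230). Its strongest summit (13.2, pileup 1516) lay beyond the far end, at PEF1 and PEF1-AS1.

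Open starts were most frequent in the beaded filament genes, the chains of type VI collagen. COL6A1 on chromosome 21 had summits 232 bp below and 51 bp above its lower end, with enrichments of 10.0 and 5.65 and pileups of 828 and 467. COL6A2 had 7.20 and a pileup of 332 at 74 bp after its start, where COL6A2-DT also begins or ends within 1 kb. COL6A3 had 4.69 and 235 at 57 bp before its start, in the run printed above with 1 CG dinucleotide. These 3 genes encode the classical type VI heterotrimer. The other 2, COL6A5 and COL6A6, lie next to each other on chromosome 3 and looked different. COL6A6 had 2.35 and a pileup of 49 at 644 bp after its start, and COL6A5 had no summit within 9.05 kb of either end. Each had 3 summits in the gene or its flanks, at 0.188 and 0.166 per 10 kb, whereas COL6A1, COL6A2 and COL6A3 had 1.62, 1.28 and 1.27 per 10 kb.

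Of the remaining classes, COL7A1 stood out for its start. It encodes the anchoring fibril collagen that fastens the epidermis to the dermis, and its start had the highest enrichment of the family, 12.3, with a pileup of 2173 at 491 bp before the start. Among the short-chain network genes, COL8A1, a chain of vascular and corneal basement membranes, had 7.03 and a pileup of 170 at 75 bp below its lower end, near LOC124909401. Its partner COL8A2 had its nearest summit 3593 bp from the start (3.13, pileup 184). COL10A1, a product of hypertrophic chondrocytes, had its nearest at 1489 bp (2.63, pileup 55). COL13A1, a transmembrane collagen, had 6.28 and a pileup of 373 at 36 bp before the start, near LOC124902444.

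The other transmembrane collagens, the multiplexins, COL26A1 and COL28A1 had no summit at their starts. COL15A1 and COL18A1, multiplexins of vascular and epithelial basement membranes, had 14 and 21 summits. The strongest of COL15A1 lay 45.9 kb from the start with an enrichment of 13.8 (pileup 1590), and that of COL18A1 lay 22.7 kb from the start with 12.04 and 818. For COL18A1 this was also the summit nearest to the start, and the other 20 had enrichments of 1.58 to 3.44. COL17A1, a hemidesmosome collagen of epithelia, had 8 summits with a highest enrichment of 7.20 (pileup 401) at 31.2 kb. COL23A1 had 16, with 9.58 (pileup 269) at 4765 bp. COL25A1, a collagen of neurons, had 10, with 13.6 (pileup 362) at 421.3 kb, and none within 131.4 kb of the start. COL26A1 had 17 weak summits with a maximum of 4.02, whereas COL28A1 had 3, with enrichments of 8.49, 12.8 and 17.9. The COL26A1 summit nearest to the start lay 1185 bp from it, just outside the window, with 3.66 and a pileup of 92. COL26A1 was counted with a window of 2500 bp, and when intervals in place of summits were used.

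In most members the strongest site was not the start. The strongest summit of the window was the one counted at the start in 6 of 41 members (14.6%). The share was 45.4% of all coding genes with a summit. These 6 were COL5A1, COL5A2, COL4A1, COL6A1, COL6A3 and COL7A1. COL5A2 and COL6A1 have no listed start, so their summits were counted at an end of the gene. The COL5A2 summit also lay within 1 kb of an end or start of WDR75, and the COL4A1 summit was shared with COL4A2. In 25 members the strongest summit lay elsewhere in the gene. In 10 it lay in the flanks, and 4 of these were within 1 kb of a start or end of another gene. The strongest of all were in COL8A1 (17.9, pileup 394, 20.6 kb inside the lower end) and COL28A1 (17.9, pileup 668, 96.8 kb from the start). The median strongest enrichment was 10.5 over the members and 12.4 over all coding genes. When summits in the gene body alone were counted the order turned, with 9.34 for the members and 8.58 for all genes. It also turned without summits at other genes' starts, with 10.1 and 9.27. Members had a median of 4 summits in the gene body, against 1 over all genes. The part of this number in the strongest enrichment was not tested.

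**Figure D2:**
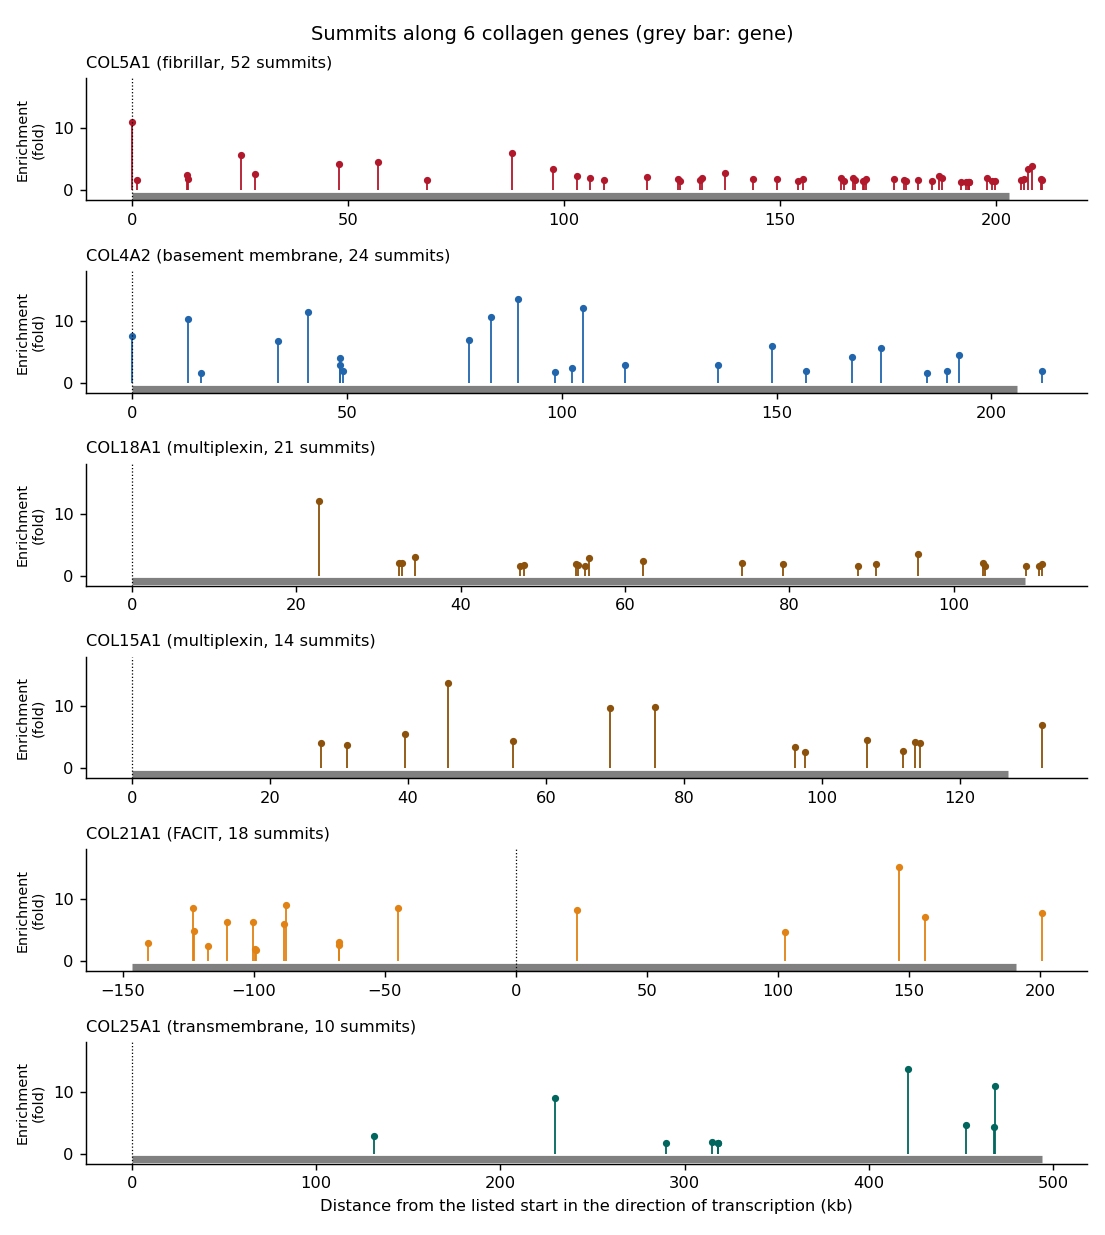
Enrichment (fold over local background) of each summit against its distance from the listed start in kb, in the direction of transcription, for COL5A1, COL4A2, COL18A1, COL15A1, COL21A1 and COL25A1. Each stem is a summit, the grey bar the gene and the dotted line the start; COL5A1 and COL4A2 have a summit at the dotted line and the other 4 genes do not.

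Collagen genes are long and held more summits per gene than the median coding gene. The median member was 133 kb long and had 6 summits, against 24.5 kb and 3 over all coding genes. Per 10 kb of window the medians were 0.476 and 0.612, but among genes longer than 20 kb they were 0.476 for 40 members and 0.475 for all 10600 coding genes. The 371 distinct summits fell in 319 intervals: 20 lay in start windows, 299 elsewhere in genes and 52 in flanks. Start windows thus held 5.39% of the summits, against 19.7% of the 67493 in all coding windows. This comparison was not matched for gene length. The summits of the collagen windows had a median enrichment of 2.93, against 4.30, and outside start windows 2.90, against 3.74. Genes with many summits weigh more in these medians. COL5A1 alone gave 52 summits with a median of 1.77, COL22A1 gave 30 with 3.425 and COL4A2 gave 24 with 4.16. By class, the beaded filament genes had a median of 1.27 summits per 10 kb and the multiplexin genes 1.29, while the fibrillar (0.355), basement membrane (0.317) and FACIT (0.388) genes lay below. COL5A1 (52), COL22A1 (30) and COL4A2 (24) had the most summits, and COL11A1, COL11A2, COL4A3, COL9A1 and COL9A2 had 1 each. In COL22A1 the strongest lay inside the gene with an enrichment of 12.2 (pileup 797).

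**Figure D3:**
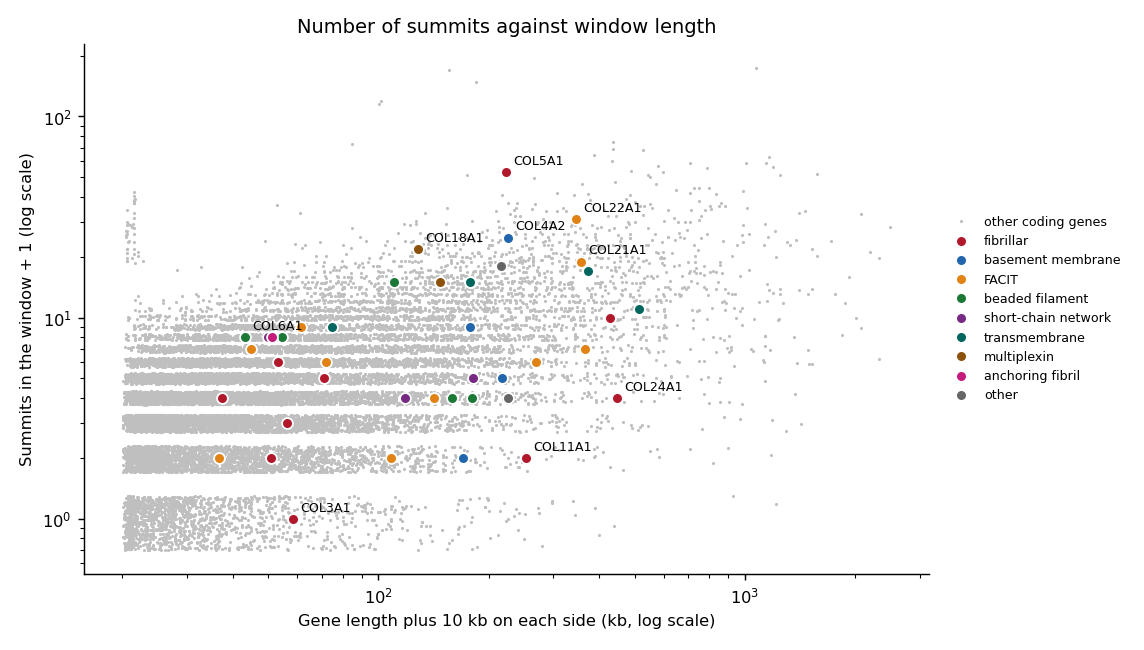
Number of summits in the window plus 1 against gene length plus 10 kb on each side, both on log scales, for the 42 collagen genes (coloured by class) and the other coding genes (grey, shifted slightly at random in height so that they can be seen). COL5A1, with 52 summits, lies highest among the members, and COL11A1 has 1 summit in a gene of 232.1 kb.

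Many of the COL5A1 summits lay in 1 stretch at the far end of the gene, where the local background was high. Of its 52 summits, 24 (46.2%) had a background of at least 5 times the genome-wide 20.3 fragments. All 24 lay 164.06 to 210.68 kb from the start, with backgrounds of 103 to 296 fragments and enrichments of 1.27 to 3.91. Past 164 kb the 28 summits had a median pileup of 318.5 and a median enrichment of 1.61, and the 24 before it had 76.5 and 1.97. Only 9 summits in 4 other members (COL1A1, COL7A1, COL15A1 and COL16A1) had such a background. The part of the background in the number of COL5A1 summits was not tested.

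**Figure D4:**
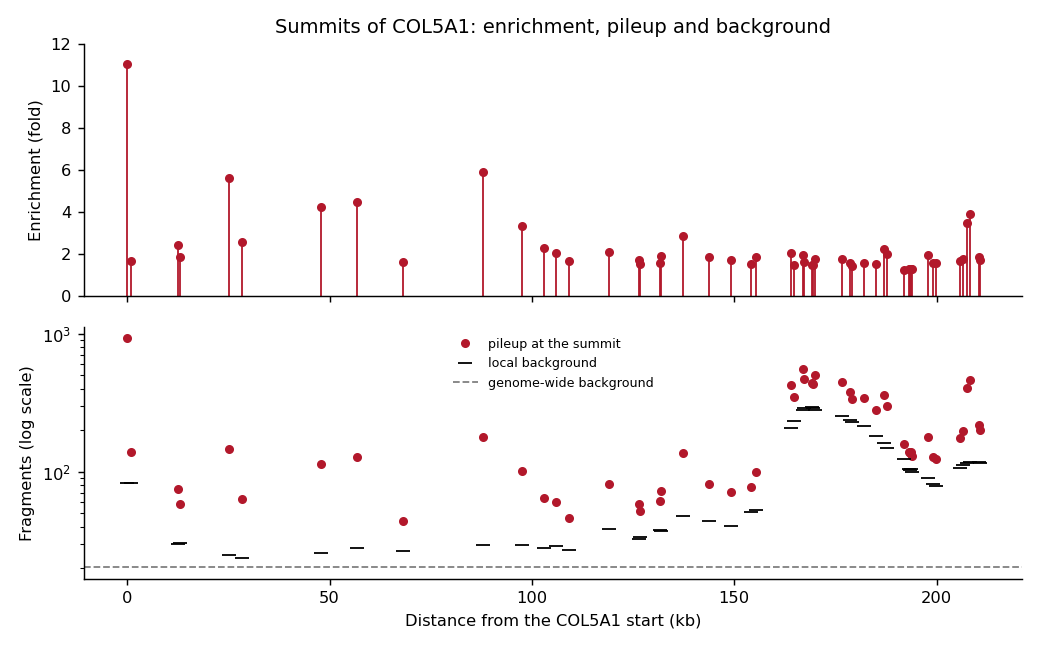
The 52 COL5A1 summits against distance from the start in kb, with enrichment (fold) above and pileup and local background (fragments, log scale) below. The dashed line is the genome-wide background, and the local background is at most 52.7 before 164 kb outside the start window and at least 78.5 beyond it.

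A smaller share of the CpG-rich starts had a summit among collagen genes than among all coding genes, a difference that was not tested. The CpG ratio, observed CG dinucleotides over the number that base composition gives, was taken over 300 bases (250 before to 50 after the listed start). Among members with a ratio over 0.6, 8 of 19 had a summit at the start (42.1%), against 84.5% of all coding genes in that band. From 0.3 to 0.6 it was 1 of 7 members against 41.8% of the other genes, and under 0.3 it was 1 of 4 against 18.5%. The median ratio was 0.752 in the 10 open and 0.654 in the 20 closed members, whereas it was 0.847 and 0.326 in all open and closed genes. Closed members with high ratios included COL25A1 (1.1), COL15A1 (1.08), COL8A2 (0.922) and COL18A1 (0.897). The open COL6A3 start, with a ratio of 0.183, lay at the other end of the range.

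**Figure D5:**
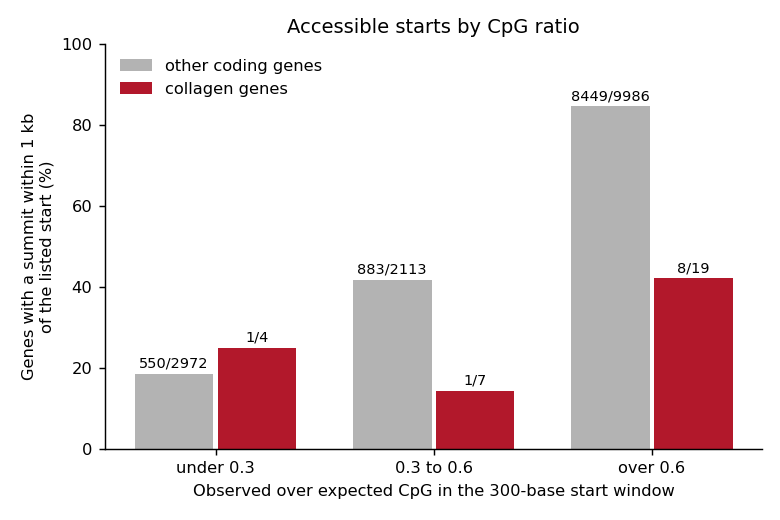
Share of genes with a summit within 1 kb of the listed start (percent) in 3 bands of CpG ratio, for collagen genes and other coding genes. Over 0.6 the shares are 42.1% for 19 collagen genes and 84.6% for 9986 others.

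Short promoter motifs were counted in the same windows on both strands, as letters and not as binding sites. TATAAA occurred in 5 of 30 members (16.7%) and 9.71% of all listed genes, in 4 of 10 open and 1 of 20 closed members. Over all listed genes it occurred in 5.39% of open and 17.9% of closed starts. CCAAT occurred in 8 members (26.7%) and 36% of all. GGGCGG occurred in 18 members (60.0%) and 58.9% of all, in 8 of the open and 10 of the closed members, against 71.7% and 34.5% of all open and closed starts. TGANTCA occurred in 0 members and 5.7% of all.

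Genes that modify, fold, trim or crosslink collagen were counted in the same way. A summit lay within 1 kb of the start in 24 of 30 (80%), against 64.4% of all coding genes. Their median enrichment there was 9.96, with a range of 2.35 to 18.3, against 11.9 over all genes. The highest were PPIB (18.3) and MIA3 (17.6), which act in folding and export, and the prolyl hydroxylases P4HA1 (17.4) and P3H1 (16.0). The 6 without were P3H2, ADAMTS2, ADAMTS3, ADAMTS14, PCOLCE and LOXL4. ADAMTS2, ADAMTS3 and ADAMTS14 are the proteinases that remove the amino-terminal propeptides of fibrillar collagens.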

How the data were processed

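ATAC-seq was done on 12 libraries in 3 groups of 4. The submitters' processing notes name fastp 0.20.0, Bowtie2 2.4.3, SAMtools, deepTools 3.5.0, MACS2 2.2.7.1 and the build hg38, with no role or order. The deposited peak list has 10 columns, of which 0 hold values of a sample, so depth per library is unknown and the planned test between concentrations had no input. Its units are the authors' deposited score, the deposited fold enrichment over local background, and the deposited −log10 p-value and −log10 q-value. The score equals 10 times the −log10 q-value, truncated, in 99.76% of lines, and the lowest −log10 q-value is 1.30. That the list pools all libraries is read from its having no sample.

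Pileup and background were recovered by taking enrichment as (pileup + 1) over (background + 1) and the p-value as a Poisson tail, which gave whole pileups (within 0.05) in 99.96% of lines. Summits were assigned to RefSeq GRCh38.p14 genes with flanks of 10 kb. The start window was 1 kb on each side. Exon and intron annotation was not used. The recovery was tested on simulated data. Shares have exact Clopper-Pearson 95% intervals. Every member is named, by the rule on symbols, and members, classes and lists were chosen with earlier results of these data known. Python 3.11.15, numpy 2.4.6, pandas 2.3.3 and scipy 1.17.1 were used. Alternatives covered the q-value, window, flank, gene length and start definition.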

Additional observations from a re-analysis of the deposited data

How the results depend on the processing

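The share of collagen starts with a summit ranged from 31.0% to 52.4% over the alternatives, below the 59.0% to 71.7% of all coding genes in each. Flanks of 50 kb gave a summit to 100% of members (97.0% of all genes), a median of 10.5 summits (9), a median strongest enrichment of 13.3 (14.2) and the strongest summit at the start in 4.76% (26.0%). Counting the gene body alone set the last share to 2.63% (30.2%). As pileup, the median strength was 332 fragments at starts (775 over all genes) and 362 for the strongest summit (730). The fibrillar count of 3 became 5 with a window of 2500 bp, and 5 when any part of an interval within 1 kb was counted. The FACIT count of 5 became 2 at a −log10 q-value of at least 10, and 2 with a window of 500 bp. The causes were not tested. The other 58 values stayed within their interval or, for counts, close to the main count. Leaving out genes without a listed start, summits of raised background or summits at other genes' starts, and the class, CpG and strongest-place counts under each setting, were chosen after seeing the data. No paired analysis was possible because the list has no values per sample, and for the same reason no library could be left out and the planned tests between concentrations were not run.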

Other observations

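COL4A5 and COL4A6, the X-linked collagen IV genes, were outside the autosomal rule and form another head-to-head pair. Between their listed starts lie 379 bases on the X chromosome. A summit with an enrichment of 6.29 (pileup 133) lay 118 bp from the COL4A5 start and 262 bp from the COL4A6 start. It was the only summit in the COL4A5 window, and COL4A6 had 1 more, 252.4 kb from its start, with an enrichment of 8.96 (pileup 190). Of the 3 collagen IV pairs, those of COL4A1 with COL4A2 and of COL4A5 with COL4A6 thus had a summit at their starts, and that of COL4A3 with COL4A4 did not.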
